A study of Rattus norvegicus with 6 samples.

Results

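The genes described here are 40 genes of the cell cycle and of proliferation, chosen by name: D-type and later cyclins, the proteins that load the replicative helicase, enzymes of DNA synthesis, and kinases, checkpoint proteins and motors of mitosis. Probes were assigned through the transcript accession on the array matched to RefSeq. Of the 40 genes, 36 had a probe, out of 22179 rows tested in all, of which 12963 carried a gene symbol. No probe was matched to Mcm5, Cdc25c, Bub1b or Top2a, and these were not analysed here. All 36 measured genes were well above background on each of the 6 arrays, so none entered through its level in only 1 group.

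The samples were rat brain, as total RNA on Agilent arrays read in 1 colour, with 1 array per sample. One group of 3 held brain tissue of sham-operated rats, given as controls. The other group of 3 held brain tissue described as peripheral, from rats with intracerebral hemorrhage (ICH), bleeding into the brain; the title of the study speaks of injury around the hematoma. All 6 carried the age entry day 1, and the labels do not say whether it counts from birth or from the operation. They name the arrays of a group biological replicates. Strain, sex, the way the hemorrhage was made, the brain region taken in either group and any pooling of animals are not given in the sources used here.

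A dividing cell passes through a gap phase (G1), DNA synthesis (S), a further gap (G2) and mitosis (M). D-type cyclins with their kinases inactivate the retinoblastoma protein and free E2F factors, which switch on the genes of DNA replication. Before S phase the proteins Cdc6 and Cdt1 load the MCM helicase onto origins, a step called licensing. Later, cyclin A and cyclin B with Cdk1 drive mitosis, under the control of the spindle checkpoint, and their genes are held down in resting cells by a repressor complex (DREAM) that reads a promoter element called CHR. Most cells of the adult brain do not divide, while oligodendrocyte precursors, cells of the neurogenic niches, and microglia and blood-derived cells after injury can.

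None of the 36 genes passed an adjusted p of 0.05 in limma (lowest adjusted p = 0.299, Benjamini-Hochberg over all rows), where 0% of the 22179 rows did. The arrays of the ICH group did not move together. On ICH 1 all 7 measured genes of origin licensing, and on ICH 2 6 of them, were above every sham array (36.1% and 34.6% of all rows). On ICH 3 all 10 measured genes of the spindle checkpoint and of mitotic chromosomes, and 7 of 9 of G2/M control, were below every sham array (38.2% of all rows). The only licensing gene above all sham arrays on all 3 ICH arrays was Mcm4, and Kif23, Ttk and Cdc20, all genes of mitosis, were below on all 3.

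Promoter sequence is shown first, for a pair of licensing genes and a pair of mitotic genes, because the E2F core and the CHR are known elements of these roles, and the roles gave different values on the arrays. RefSeq promoters of assembly GRCr8 (250 bases before to 50 after the start) were found for 29 of the 40 genes and were searched on both strands for the E2F core (TTCCCGC or TTGGCGC), the CCAAT box and the CHR (TTTGAA or TTTAAA). Each stretch below is the 250 bases before the start on the gene's own strand, with the matches in capitals. Mcm6 and Mcm7 encode subunits of the helicase, Kif23 a kinesin of cytokinesis, and Cdc20 the activator of the anaphase-promoting complex.
Mcm6: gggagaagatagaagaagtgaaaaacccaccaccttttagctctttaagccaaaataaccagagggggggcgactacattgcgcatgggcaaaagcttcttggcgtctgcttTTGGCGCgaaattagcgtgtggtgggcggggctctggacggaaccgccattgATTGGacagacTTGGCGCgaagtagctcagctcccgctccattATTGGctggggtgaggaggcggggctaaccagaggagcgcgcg
Mcm7: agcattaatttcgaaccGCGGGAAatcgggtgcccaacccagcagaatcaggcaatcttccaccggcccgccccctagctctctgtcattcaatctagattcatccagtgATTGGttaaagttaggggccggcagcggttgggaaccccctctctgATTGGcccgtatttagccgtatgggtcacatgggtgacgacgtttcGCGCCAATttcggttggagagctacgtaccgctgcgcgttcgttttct
Kif23: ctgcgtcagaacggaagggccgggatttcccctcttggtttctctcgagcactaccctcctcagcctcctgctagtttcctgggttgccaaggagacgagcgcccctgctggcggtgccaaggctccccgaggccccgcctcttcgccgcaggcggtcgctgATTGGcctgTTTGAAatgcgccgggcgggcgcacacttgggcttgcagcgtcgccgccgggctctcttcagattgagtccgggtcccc
Cdc20: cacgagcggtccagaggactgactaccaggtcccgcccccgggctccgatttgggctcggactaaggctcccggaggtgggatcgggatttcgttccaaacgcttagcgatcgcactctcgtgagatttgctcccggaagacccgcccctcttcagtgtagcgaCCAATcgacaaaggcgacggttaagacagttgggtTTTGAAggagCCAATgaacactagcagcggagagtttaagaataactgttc
They lie on the minus strand at chr13:42404353-42404602, chr12:22163179-22163428, chr8:71320585-71320834 and chr5:137255800-137256049.

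The Mcm6 stretch held E2F cores at −138 and −75 from the start and CCAAT boxes at −86 and −43. The Mcm7 stretch held E2F cores at −233 and −48, the latter overlapping a CCAAT box at −45. Kif23 held a CCAAT box at −88 and a CHR at −79, with an E2F core after the start, outside the stretch shown, and Cdc20 held CCAAT boxes at −86 and −41 and a CHR at −51. Of the 6 licensing promoters 5 held an E2F core and 1 a CHR. They include Mcm5, which had no probe, and no promoter was found for Mcm4 or Cdc6. Mcm2 held CHR matches but no E2F core and differed by 0.73 between the groups. Mcm7, with 2 E2F cores, differed by −0.13. A link between the matches and the levels on the arrays was not tested. Of the 18 promoters of G2/M and mitotic genes, 3 held an E2F core and 17 a CHR. Among all 33469 promoters of the same length, 6.26% held the E2F core, 28.3% the CHR and 37.5% a CCAAT box, and among the 29 promoters of these genes the shares were 34.5%, 65.5% and 75.9%. A match says only that the letters occur in the window.

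Values below are log2 intensities minus the array's own 75th percentile, given relative to the mean of the 3 sham arrays for that gene, so that 0 is the sham mean and 1 a 2-fold higher intensity. Differences are ICH minus sham with the standard error (SE) of the limma fit (n = 3 arrays per group), and folds are the same differences on a linear scale. The p-values are limma's, with the adjusted p over all 22179 rows. Only 3 arrays a group limit the precision, and a single value compared over 3 against 3 arrays cannot go below an exact permutation p of 0.1.

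**Figure D1:**
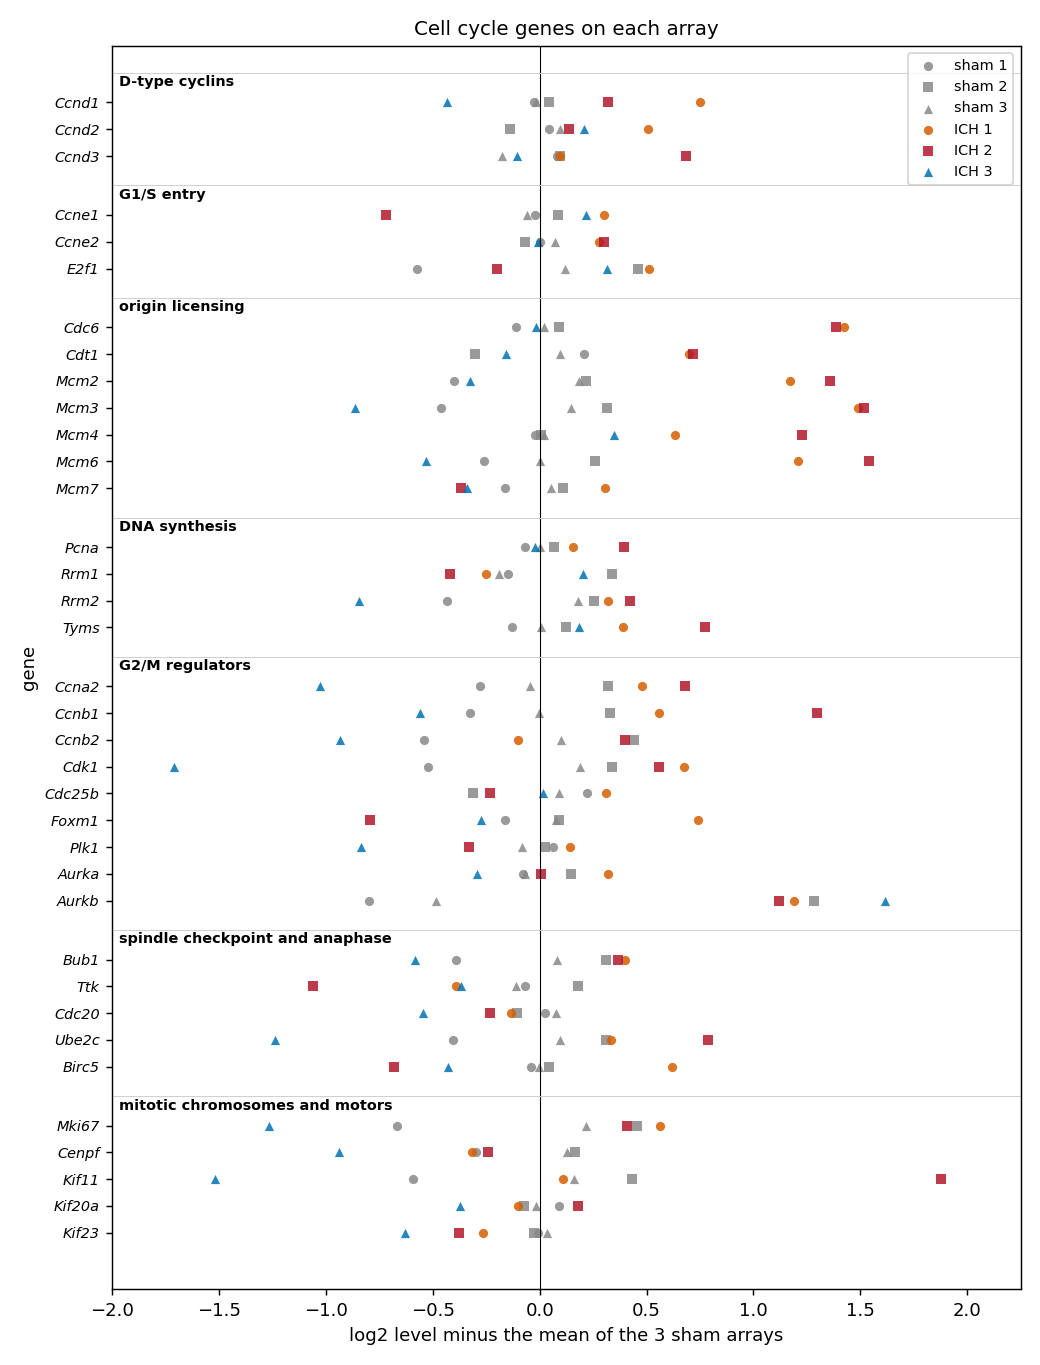
Log2 level of the 36 measured cell cycle genes on each of the 6 arrays, minus the gene's sham mean, with genes in rows grouped by role, sham arrays as grey points and ICH arrays as coloured points. ICH 1 and ICH 2 are high in the licensing genes (up to 1.49 and 1.54), and ICH 3 is low in most genes of G2/M and mitosis (down to −1.71 for Cdk1).

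Origin licensing was the role with the largest median difference of the 7 roles, 0.73 over its 7 measured genes against −0.05 over all rows, and 6 of the 7 were higher in ICH (44.5% of all rows were higher). The median was 0.34 without ICH 2, 1.26 without ICH 3 and 0.41 with array quality weights. Blocking on the slide row leaves ICH 1 against the sham arrays, so the 1.17 it gave is the value of ICH 1 alone. Mcm4, a helicase subunit, lay at −0.02, 0.00 and 0.02 on the sham arrays and at 0.64, 1.23 and 0.35 on ICH 1, 2 and 3. Its groups did not overlap, and the ICH arrays themselves spread over more than the whole sham range. The difference was 0.74 ± 0.24, a 1.67-fold higher level (adjusted p = 0.299 in limma). It was the only gene of the 36 genes higher at an unadjusted p under 0.05, where 5.74% of all rows were. Another Mcm4 probe differed by 1.04 in the same direction.

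The other helicase subunits split between the ICH arrays. Mcm2 was at −0.40, 0.22 and 0.18 on the sham arrays and at 1.17, 1.36 and −0.33 on the ICH arrays. Mcm3 was at −0.46, 0.31 and 0.15 in sham and at 1.49, 1.52 and −0.87 in ICH. Mcm6 was at −0.26, 0.26 and 0.00 in sham and at 1.21, 1.54 and −0.53 in ICH. In each of these 3 genes ICH 1 and ICH 2 stood well above the highest sham array, ICH 3 did not exceed sham, and the group differences of 0.73 ± 0.47, 0.71 ± 0.68 and 0.74 ± 0.55 were not large against their errors (adjusted p in limma 0.476, 0.607 and 0.520).

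Cdc6, the loader of the helicase, was at −0.11, 0.09 and 0.02 on the sham arrays and at 1.42, 1.39 and −0.01 on the ICH arrays, a difference of 0.93 ± 0.40 (1.91-fold, adjusted p = 0.352 in limma). ICH 3 lay inside the sham range. Cdt1, its partner in loading, was at 0.21, −0.30 and 0.10 in sham and at 0.70, 0.72 and −0.16 in ICH, a difference of 0.42 ± 0.29 (adjusted p = 0.497 in limma) that was 0.11 with normexp background correction. Mcm7 did not share the pattern of the other subunits: it was at −0.16, 0.11 and 0.06 in sham and at 0.30, −0.37 and −0.34 in ICH, so that only ICH 1 was above sham. Its difference was −0.13 ± 0.22 (adjusted p = 0.772 in limma), and this sign turned when the slide row was a block or when arrays were centred on spike-in probes.

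Each array was also left out in turn. ICH 3 was the array with low values in these genes, so larger differences without it follow from those values and are a description only; over all rows it was ICH 2 that correlated least with the sham arrays (0.947 to 0.952, against 0.980 to 0.986 for ICH 3). Without ICH 3 the differences were 1.41 ± 0.14 for Cdc6 (2.65-fold), 1.38 ± 0.22 for Mcm6 (2.60-fold), 1.26 ± 0.24 for Mcm2 (2.40-fold) and 0.93 ± 0.21 for Mcm4 (1.91-fold), and Mcm3 was 2.84-fold higher with an SE of 0.27 on the log2 scale. Adjusted p-values in limma were 0.0627 for Cdc6, 0.109 for Mcm3, 0.0985 for Mcm6, 0.116 for Mcm2 and 0.133 for Mcm4, so none of the 36 genes passed there either. At an unadjusted p under 0.05, 10 genes were then higher (9.19% of all rows) and 1 was lower (11.9%), while 0.149% of all rows passed the adjusted threshold. Without ICH 2, 1 gene was higher (8.36% of all rows) and 2 were lower (11.4%) at that unadjusted p, 0.0361% of rows passed, and Mcm4 differed by 0.49 ± 0.13 (adjusted p = 0.232 in limma). The other differences were then 0.70 ± 0.43 for Cdc6, 0.42 ± 0.48 for Mcm2, 0.34 ± 0.53 for Mcm6, 0.31 ± 0.72 for Mcm3 and 0.27 ± 0.31 for Cdt1, smaller than with all arrays.

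D-type cyclins carry growth signals into the cycle. Ccnd2 lay above sham on every ICH array, at 0.50, 0.14 and 0.21 against sham values of 0.04, −0.14 and 0.10, although the gap between the groups was narrow. The difference was 0.28 ± 0.16 (1.22-fold, adjusted p = 0.421 in limma). Ccnd1 spread in ICH from 0.75 on ICH 1 through 0.32 on ICH 2 to −0.43 on ICH 3, while its sham arrays lay between −0.03 and 0.04. Its difference of 0.21 ± 0.30 was smaller than its error (adjusted p = 0.734 in limma). Ccnd3 was at 0.08, 0.10 and −0.18 in sham and at 0.09, 0.68 and −0.11 in ICH, a difference of 0.22 ± 0.23 that rested on ICH 2 and was −0.01 without that array.

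The genes of G1/S entry differed by no more than their errors or little more. Ccne2, a cyclin E that activates Cdk2, was at 0.28, 0.30 and −0.01 in ICH, with sham between −0.07 and 0.07, a difference of 0.19 ± 0.14. Its partner gene Ccne1 was at 0.30, −0.72 and 0.22 in ICH, with sham between −0.06 and 0.08 (−0.07 ± 0.29). E2f1, a factor that switches on replication genes, was at −0.57, 0.46 and 0.12 in sham and at 0.51, −0.20 and 0.31 in ICH, where the sham spread alone covered nearly every ICH value (0.21 ± 0.32). Adjusted p-values in limma for the 3 genes lay between 0.523 and 0.919, and the sign for Ccne1 turned with array weights, the slide row block and spike-in centring.

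Among the enzymes of DNA synthesis, Tyms, thymidylate synthase, was above sham on every ICH array. It was at −0.13, 0.12 and 0.00 in sham and at 0.39, 0.77 and 0.18 in ICH, a difference of 0.45 ± 0.19 (1.37-fold, adjusted p = 0.345 in limma). Pcna, the sliding clamp of the polymerases, was at −0.07, 0.07 and 0.00 in sham and at 0.15, 0.40 and −0.02 in ICH, a difference of 0.18 ± 0.15. It thus shared the direction of the licensing genes on ICH 1 and ICH 2 at a smaller size. The subunits of ribonucleotide reductase, the enzyme that makes deoxynucleotides, had different values on the ICH arrays. The Rrm1 probe was dim, with a mean sham signal of 54.2 scanner units against 1830 for Rrm2. Rrm2, the subunit made in S phase, was at −0.43, 0.25 and 0.18 in sham and at 0.32, 0.42 and −0.84 in ICH (−0.04 ± 0.39). Rrm1 was at −0.15, 0.34 and −0.19 in sham and at −0.25, −0.42 and 0.20 in ICH (−0.16 ± 0.23), low on ICH 1 and ICH 2 where Rrm2 was high; neither passed in limma (adjusted p 0.970 and 0.746), and both signs turned under spike-in centring.

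Counted over the 36 genes, 20 were higher (44.5% of all rows) and 16 lower (55.5%) in ICH, and the median difference was 0.0385. Spike-in centring moved the median of all rows from −0.05 to 0.39. The split was then 34 higher to 2 lower and the median of the 36 genes 0.48. This centring shifts all rows by the same amount, so the gap of 0.09 to the median of all rows could not change. With the slide row as a block, which leaves ICH 1 against the sham arrays of the same row, the split was 29 to 7 and the median 0.36, and row and group cannot be told apart for ICH 2 and ICH 3. All 3 ICH arrays lay above all 3 sham arrays for Mcm4, Tyms and Ccnd2, 3 of 36 where 10.3% of all rows did so. They lay below for Kif23, Ttk and Cdc20, again 3 of 36 where 17.3% of rows did so, so that 6 of 36 had groups that did not overlap against 27.6% of rows. At an unadjusted p under 0.05, 1 gene was higher and 2 were lower, the latter where 8.99% of all rows were. Read against all rows, the counts of genes without overlap and at an unadjusted p under 0.05 were below the background share. The share of genes that were higher was above it in the reported fit, but the split depended on the setting. It was 18 to 18 with quantile normalization, 16 to 20 with median centring, and 15 to 21 without sham 1 or without ICH 1. Leaving out any 1 of the sham arrays, or blocking on the slide row, ended the unadjusted calls of Mcm4, Kif23 and Ttk. The replicate block ended those of Kif23 and Ttk, and leaving out ICH 3 ended that of Kif23. The median was 0.34 without ICH 3 and −0.11 without ICH 1.

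**Figure D2:**
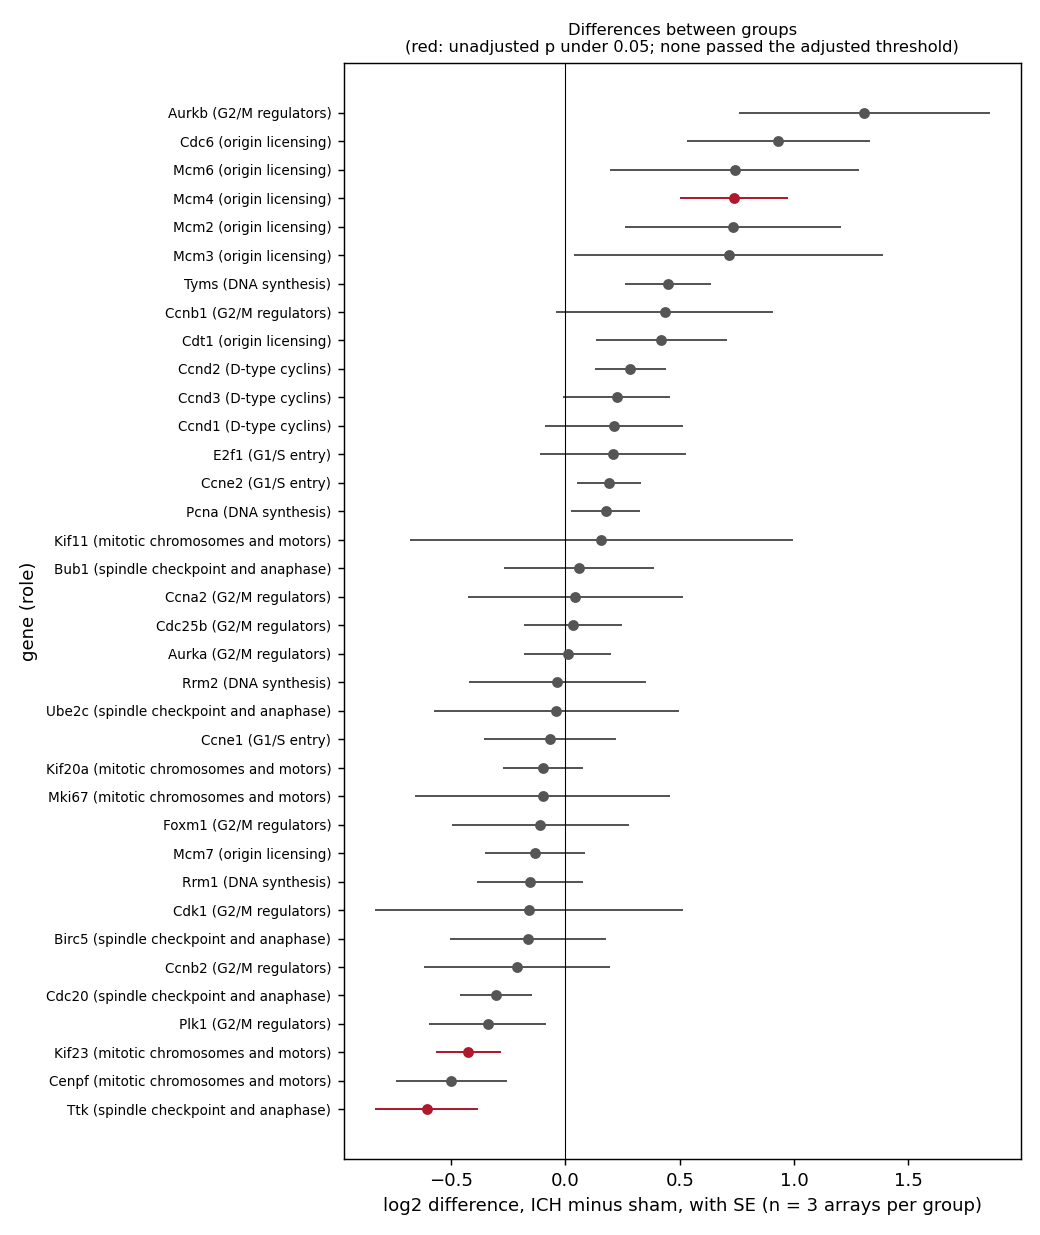
Difference in log2 level between ICH and sham for the 36 measured genes, sorted by size with the role in brackets and with bars for the standard error of the limma fit (n = 3 arrays per group). Of the 7 licensing genes 6 lie to the right of 0, and Mcm4, Kif23 and Ttk are drawn in red for an unadjusted p under 0.05.

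Genes of G2/M control had a median difference near 0, with opposite values on different ICH arrays. Cdk1, the kinase that starts mitosis, was at −0.52, 0.34 and 0.19 in sham and at 0.68, 0.56 and −1.71 in ICH, a difference of −0.16 ± 0.67 (adjusted p = 0.917 in limma). ICH 1 and ICH 2 exceeded all sham values and ICH 3 was lower than all of them. Its cyclin partner Ccnb1 followed the same order, at −0.32, 0.33 and 0.00 in sham and at 0.56, 1.30 and −0.56 in ICH (0.43 ± 0.48). Ccna2, cyclin A, was at −0.28, 0.32 and −0.04 in sham and at 0.48, 0.68 and −1.03 in ICH (0.04 ± 0.47). The other B-type cyclin gene, Ccnb2, was at −0.54, 0.44 and 0.10 in sham and at −0.10, 0.40 and −0.93 in ICH (−0.21 ± 0.41), so only its low value on ICH 3 left the sham range.

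Aurkb, the kinase of the chromosomal passenger complex, had the largest difference of the 36, 1.31 ± 0.55 (2.47-fold, adjusted p = 0.345 in limma). It was at −0.80, 1.28 and −0.48 in sham and at 1.19, 1.12 and 1.61 in ICH. Its sham arrays spread over more than the difference itself, and sham 2 lay inside the ICH range. With normexp background correction the difference was 0.85. With Cdc25b it was an exception to the low values on ICH 3 among the G2/M genes, unlike Plk1, the polo-like kinase of mitotic entry, which was at 0.14, −0.33 and −0.83 in ICH (−0.34 ± 0.26). Foxm1, a factor that switches on G2/M genes, was at 0.74, −0.80 and −0.28 in ICH with sham between −0.16 and 0.09 (−0.11 ± 0.39), and its other probe differed by 0.82, in the opposite direction. Cdc25b, a phosphatase that activates Cdk1, and Aurka, a kinase of the spindle poles, differed by 0.03 ± 0.21 and 0.01 ± 0.19, and both signs turned under median centring of the arrays.

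The spindle checkpoint holds cells in metaphase until chromosomes are attached, and Ttk is a kinase at its top. Ttk was at −0.07, 0.18 and −0.11 in sham and at −0.39, −1.06 and −0.37 in ICH, below every sham array throughout. The difference was −0.61 ± 0.23, a 0.656-fold level (adjusted p = 0.322 in limma), and −0.16 under spike-in centring. Cdc20 was at 0.03, −0.10 and 0.08 in sham and at −0.14, −0.23 and −0.55 in ICH, with ICH 1 just under the lowest sham array. Its difference was −0.30 ± 0.16 (adjusted p = 0.399 in limma), and it turned to 0.14 under spike-in centring. Ube2c, the ubiquitin carrier that works with Cdc20 at the anaphase-promoting complex, went the way of Cdk1, at −0.41, 0.31 and 0.09 in sham and at 0.33, 0.79 and −1.24 in ICH (−0.04 ± 0.54).

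Bub1, a checkpoint kinase at the kinetochore, was at 0.40, 0.37 and −0.58 in ICH with sham between −0.39 and 0.31 (0.06 ± 0.33). Birc5, survivin, which belongs to the same complex as Aurkb, was at 0.62, −0.68 and −0.43 in ICH with sham between −0.04 and 0.05 (−0.16 ± 0.34). It was thus above sham on ICH 1 and below on ICH 2 and ICH 3, and did not follow Aurkb. All 5 genes of this role were below every sham array on ICH 3.

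Kif23, which builds the midbody at cytokinesis, was lower in ICH with little spread in sham. It was at −0.01, −0.03 and 0.03 in sham and at −0.26, −0.38 and −0.63 in ICH, a difference of −0.43 ± 0.14 (0.745-fold, adjusted p = 0.303 in limma). All ICH arrays lay below sham, but under spike-in centring the difference was 0.02. Kif11, the kinesin that separates the spindle poles, had the widest spread in ICH, at 0.11, 1.88 and −1.52 against −0.59, 0.43 and 0.16 in sham (0.16 ± 0.84). Kif20a, a kinesin of the central spindle, was at −0.10, 0.18 and −0.37 in ICH with sham between −0.07 and 0.09 (−0.10 ± 0.18).

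Mki67, the common marker of proliferating cells, was at −0.67, 0.45 and 0.21 in sham and at 0.56, 0.41 and −1.27 in ICH. The groups overlapped widely, and the difference was −0.10 ± 0.56 (adjusted p = 0.940 in limma); its 3 probes differed by −0.18 to −0.01. Cenpf, a kinetochore protein of G2 and mitosis, was at −0.30, 0.17 and 0.13 in sham and at −0.32, −0.24 and −0.94 in ICH, a difference of −0.50 ± 0.24 (adjusted p = 0.382 in limma) that was −0.06 under spike-in centring and −0.31 with normexp. It was low on all ICH arrays, though ICH 2 lay above sham 1. All 5 measured genes of mitotic chromosomes and motors were below every sham array on ICH 3. Of 9 genes with more than 1 probe, 7 had the same sign on their probes, and the others were Foxm1 and Rrm2.

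Read array by array, the counts for ICH 1 and ICH 2 shared a direction, and those for ICH 3 had the opposite one. ICH 1 was above every sham array in 26 of the 36 genes (36.1% of all rows) and below in 6 (37.3%). ICH 2 was above in 20 (34.6%) and below in 9 (47.9%). ICH 3 was above in 5 (27.2%) and below in 22 (38.2%). Both ICH 1 and ICH 2 lay above all sham arrays in 17 genes (18.6% of all rows), among them 6 of the 7 measured licensing genes. ICH 3 was the lowest of the 6 arrays in 18 genes (12% of all rows), and 9 genes did both: Ccnd1, Mcm3, Mcm6, Rrm2, Ccna2, Ccnb1, Cdk1, Bub1 and Ube2c. These counts describe patterns noticed in these arrays and carry no test.

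**Figure D3:**
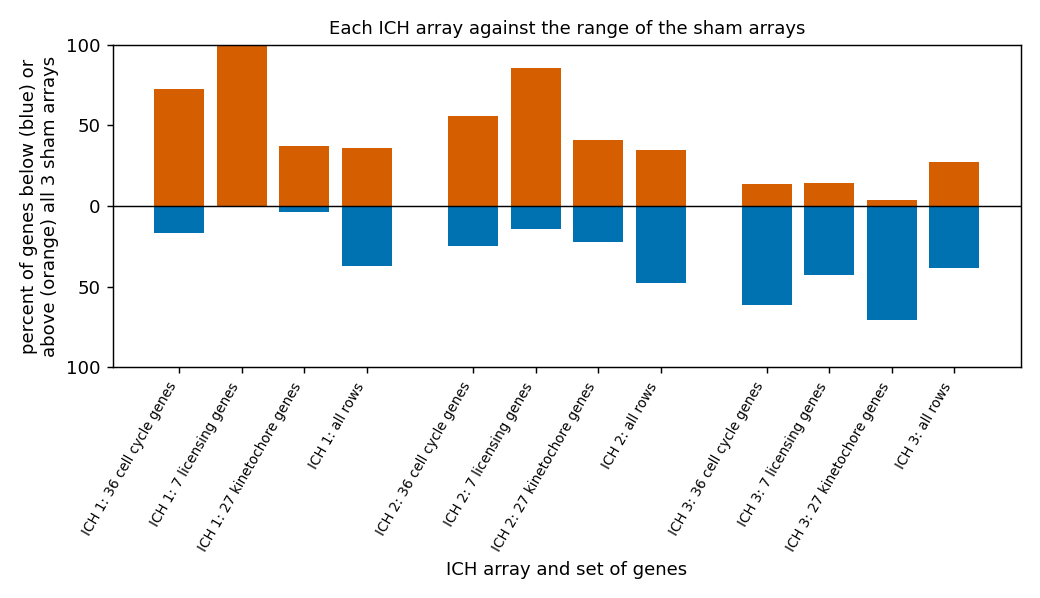
Share of genes above and below all 3 sham arrays on each ICH array, in percent. The sets are the 36 cell cycle genes, the 7 licensing genes among them, 27 further genes of kinetochore, condensin and cytokinesis, and all 22179 rows. The 36 genes exceed the share of all rows above sham on ICH 1 and ICH 2, and the share below sham on ICH 3.

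The medians of the licensing genes and of the genes of mitosis are set side by side as a description of a pattern already seen, with no test of their difference. The median of the 7 licensing genes was −0.16, 0.11 and 0.06 on sham 1, 2 and 3 and 1.17, 1.36 and −0.33 on ICH 1, 2 and 3. The median of the 10 genes of the spindle checkpoint and of mitotic chromosomes was −0.18, 0.17 and 0.08 in sham and 0.00, −0.03 and −0.61 in ICH. The genes of G2/M control are in neither list, and their medians were 0.48, 0.40 and −0.56 on the ICH arrays. The 3 sham arrays also had an order of their own: sham 1 was the lowest and sham 2 the highest sham array in 23 of the 36 genes (16.9% of all rows), and sham 1 was the lowest in 24 (32.2%).

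**Figure D4:**
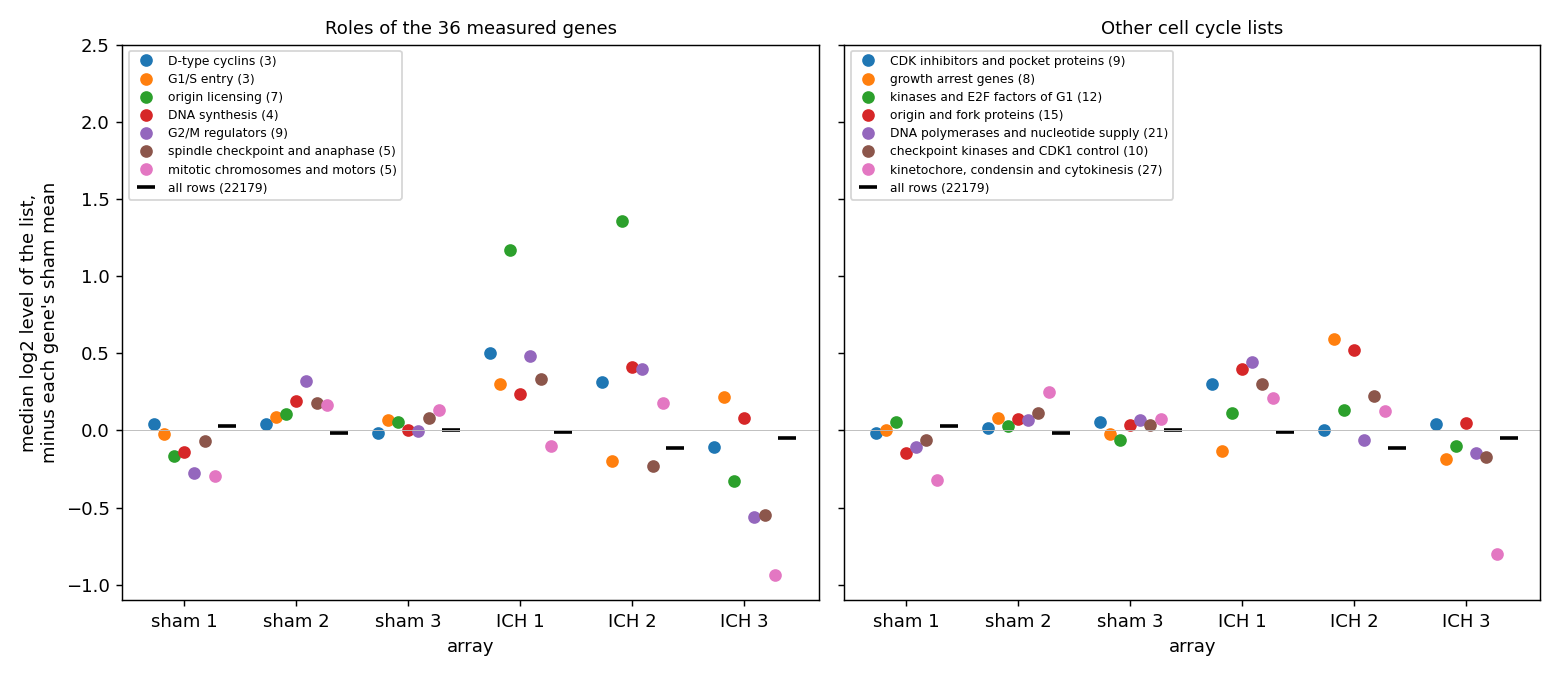
Median log2 level per array, minus each gene's sham mean, for the 7 roles of the 36 genes (left) and for 7 other lists of cell cycle genes (right), with all rows as black bars. Licensing genes reach 1.17 and 1.36 on ICH 1 and ICH 2, and the mitotic lists are lowest on ICH 3.

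A wider list of 120 further cell cycle genes, 102 of them tested, had a median of 0.08. It split into 59 higher (44.5% of all rows) and 43 lower (55.5%). None passed the adjusted threshold in limma, and 4 were higher (5.74% of all rows) and 0 lower (8.99%) at an unadjusted p under 0.05. Of the proteins of origins and forks, 14 of 15 were higher (44.5% of all rows; median 0.33, with the 3 ICH medians at 0.40, 0.52 and 0.05). Gins2, a subunit of the active helicase, was at −0.51, 0.07 and 0.44 in sham and at 1.96, 1.87 and 0.32 in ICH (1.38 ± 0.50, adjusted p = 0.316 in limma). Orc1, of the origin recognition complex that recruits Cdc6, was at −0.15, −0.02 and 0.17 in sham and at 0.72, 1.69 and 0.32 in ICH (0.91 ± 0.36, adjusted p = 0.331 in limma). Both repeated the order of the licensing genes, with ICH 3 the lowest of the ICH arrays.

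Of the polymerases and the genes of nucleotide supply 14 of 21 were higher (44.5% of all rows), with a median of 0.14. Rfc5, a subunit of the clamp loader, was at 0.90, 0.54 and 0.34 in ICH with sham between −0.13 and 0.11 (0.59 ± 0.18, adjusted p = 0.299 in limma). Of the checkpoint kinases and genes of Cdk1 control, 5 of 10 were higher (44.5% of all rows). Cks1b, a small subunit of cyclin-dependent kinases, was at −0.19, 0.18 and 0.01 in sham and at 0.71, 0.71 and 0.53 in ICH (0.65 ± 0.15, 1.57-fold, adjusted p = 0.299 in limma). ICH 3 lay near the other ICH arrays on this probe, but the other Cks1b probe differed by 0.02.

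Of the genes of kinetochore, condensin and cytokinesis 19 of 27 were lower (55.5% of all rows), with a median of −0.09. On ICH 3 their median was −0.80, and 19 of the 27 lay below every sham array (38.2% of all rows). Bub3, a checkpoint protein, was at −0.25, −0.67 and −0.23 in ICH with sham between −0.03 and 0.05 (−0.38 ± 0.16), but its other probe differed by 0.26 in the opposite direction, and Smc4, of condensin, was higher by 0.31 ± 0.18. Inhibitors of cyclin-dependent kinases and pocket proteins, which hold cells in G1, had a median of 0.08, with 6 of 9 higher (44.5% of all rows). Cdkn2d differed by 0.36 ± 0.34 and Rbl2 by −0.10 ± 0.12. Growth arrest genes had a median of 0.12 with 5 of 8 higher (44.5% of all rows). Btg1 and Ccng1 differed by −0.20 ± 0.14 and −0.34 ± 0.76. Kinases and E2F factors of G1 had a median of 0.07 with 7 of 12 higher (44.5% of all rows). Cdk4 and Ccnh differed by 0.07 ± 0.13 and −0.14 ± 0.17.

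Markers of cells that could divide or enter the tissue are given beside these genes, and the lists went different ways. In bulk RNA fewer cells of a type and less RNA per cell cannot be told apart. The summed level of 9 markers of monocytes and activated myeloid cells was −0.16, 0.16 and −0.01 in sham (log2 relative to sham). It was 0.80, 0.77 and −0.49 in ICH, with 7 of 9 higher (44.5% of all rows). That of the 5 tested neutrophil markers was −0.75, 0.02 and 0.73 in sham. In ICH it was 2.41, 2.75 and 0.12, with 3 of 5 higher (44.5% of all rows). Of these, Mmp9 was well above background on the ICH arrays alone and entered through them, which fixed its direction, and the other 4 split evenly. Cxcr2 and Elane were too dim to be tested and Mpo had no matched probe. Both sums were high on ICH 1 and ICH 2 and not on ICH 3, as the licensing genes were. Not every gene followed its sum. Spp1 was at 3.48, 3.47 and 1.22 and Mmp9 at 4.24, 4.72 and 2.62 in ICH, above every sham array on ICH 3 too. Lyz2 and the Cd44 probe used lay below every sham array on all ICH arrays (differences −0.45 and −1.33). Other Cd44 probes differed by 1.43 and 0.24. The part of these cells in the result was not tested.

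The 8 microglia markers, by contrast, summed to −0.37, −0.32 and −0.32 in ICH against −0.03 to 0.04 in sham, with 5 of 8 lower at an unadjusted p under 0.05 (8.99% of all rows). The 6 markers listed for oligodendrocyte precursors, the main dividing cells of the adult brain outside the niches, summed to 0.07, −0.07 and −0.13 in ICH. Their sham sums were −0.01 to 0.01, and 5 of 6 were lower in ICH (55.5% of all rows). These markers did not move together, so their sum is not read as a measure of precursors. Pdgfra was at −0.28, 0.38 and −0.32 in ICH, and Sox10 at 0.47, −0.82 and 0.04. Of the 10 markers of neural progenitors and neuroblasts 6 were tested, 5 of them lower (55.5% of all rows). They summed to −0.18 to −0.13 in ICH and −0.14 to 0.20 in sham. The defining neuroblast marker Dcx was not well above background on enough arrays to be tested. Lymphocyte markers summed to −1.32 to 0.82 in sham and −0.80 to 0.95 in ICH, a spread that covers both groups.

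All tested markers of neurons (6), astrocytes (8) and oligodendrocytes (6) were well above background on every array. Their sums were −0.22 to −0.03 in ICH and −0.07 to 0.05 in sham for neurons, −0.31 to −0.04 and −0.03 to 0.02 for astrocytes, and −0.80 to −0.09 and −0.14 to 0.08 for oligodendrocytes. Astrocyte markers split into 4 higher (44.5% of all rows) and 4 lower (55.5%). Gfap was at 0.91, 1.05 and −0.45, Vim at 0.83, 0.66 and −0.74, and Nes at 0.51, 0.60 and −0.34 in ICH. The bright Aqp4 and S100b were lower by −0.46 and −0.31, though another S100b probe differed by 0.78. A link of these markers to the licensing genes was not tested. Endothelial markers summed to −0.52 to −0.19 in ICH and −0.02 to 0.03 in sham, and mural markers to −0.56 to −0.41 and −0.17 to 0.19. Choroid plexus markers summed to −0.04 to 0.69 in ICH, inside their sham range of −0.90 to 0.93, with sham 1 the lowest and sham 2 the highest, the order that 23 of the 36 genes had in sham; its part in the sham spread was not tested. Erythroid markers, on the brightest probe of each gene, summed to 0.39 to 0.68 in ICH and −0.38 to 0.61 in sham. The Hba-a1 and Hbb probes in that sum differed by 0.22 and 0.64, but their other probes by 2.47 and 2.41. Alas2 differed by 1.72 ± 0.62 and Slc4a1 by −0.07 ± 0.30. Between 81.8% and 85.4% of spots were well above background on each array and 0 were saturated, and ICH arrays correlated with each other at 0.949 to 0.980 over all rows, below the 0.985 to 0.991 among sham arrays. The median SD over the 36 genes was 0.21 in sham and 0.50 in ICH, against 0.14 and 0.31 over all rows.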

How the data were processed

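Per the file headers, the deposited intensity values are Agilent's processed signal (Feature Extraction 11.5.1.1), that is, after subtraction of background and spatial detrending, with no scaling between arrays; the submitters' processing notes name 10.7. Per the file headers, flags mark spots that are well above background, saturated, not uniform or outliers of their probe. The authors' deposited log2 table served to check scaling and as an alternative input to the fit. The design text calls the ICH replicates transfected, which no other label does; groups follow the titles.

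Here the log2 intensity was taken, flagged non-uniform and outlier spots were dropped, spots were averaged per probe and the array's 75th percentile over probes was subtracted. Probes were kept where at least 0.5 of spots were well above background on at least 3 of 6 arrays. The brightest probe stood for a symbol, giving 22179 rows; 4 probes lacking a value on some array were dropped. limma 3.58.1 in R 4.3.3 (lmFit, eBayes, no covariate) tested ICH minus sham with Benjamini-Hochberg adjustment over all rows. Of 30367 probes, 18355 matched 1 symbol of RefSeq (GRCr8) and 12012 none. Arrays shared 1 slide and 1 scan in 2 rows: the sham arrays and ICH 1 in one, ICH 2 and ICH 3 in the other.

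The members and all lists were chosen with earlier results of these data known. Named are all members and, of the other cell cycle lists, up to 4 genes with an unadjusted p under 0.05 in limma or otherwise the 2 brightest. Single cell type markers were named by no such rule. The fit was tested on simulated data. Alternatives covered background correction, centring, filters, probe choice, weights, blocks and leaving out each array. The planned mean-signal column was replaced by the median-signal column.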

Additional observations from a re-analysis of the deposited data

How the results depend on the processing

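Limits: there were 3 arrays a group, and the median ICH SD over the 36 genes, 0.50, exceeded most of their differences in size. An adjusted p above 0.05 in limma therefore does not show that a gene did not differ. Spots gave no counts, dim probes were left out, and array row, tissue site and group overlap in part. All 36 genes were well above background on all 6 arrays, but dim ones depend on the background correction: with normexp Cdt1 was 0.1053 and Aurkb 0.849.

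Over all settings 0 of the 36 genes passed the adjusted threshold. Over all rows 0 passed in the reported fit, 3 with normexp background correction, 33 with spike-in centring, 4 with rows well above background on all 6 arrays, 4 with intensity trend and robust variance, and 3 with array quality weights; leaving out 1 array gave 0 to 33 (33 without ICH 3, 8 without ICH 2). Genes higher at an unadjusted p under 0.05 numbered 1 in the reported fit, 2 with normexp, 2 with quantile normalization, 6 with spike-in centring, 3 with rows above background on all 6 arrays, 2 with trend and robust variance, 4 with the slide row block (Birc5, Ccnd2, Cdc6 and Foxm1, not Mcm4) and 0 to 10 when 1 array was left out (10 without ICH 3). Genes lower numbered 2, against 4 with median centring, 0 with spike-in centring, 0 with the replicate block, 0 with the slide row block and 0 to 4 when 1 array was left out; quantile normalization gave 3. The median of 0.0385 was 0.4812 with spike-in centring, 0.3617 with the slide row block, and −0.1071 to 0.3448 when 1 array was left out. The deposited log2 values gave 0 rows passing, a median of 0.0385 and the same counts. Median centring made 26.9% and spike-in centring 96.5% of rows at that p higher in ICH, against 38.9%.

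Same-numbered arrays did not deviate together (correlations −0.19, −0.00791 and 0.0696), so the numbers were not taken as pairs; with the replicate block 0 rows passed and the median was 0.0385.

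Signs turned as follows. Array weights gave Ccne1 0.1971, Ccna2 −0.1982, Foxm1 0.1099, Bub1 −0.1124, Birc5 0.03301 and Kif11 −0.5916. The mean of a gene's probes gave Rrm2 0.00481 and Foxm1 0.3547, and normexp gave Rrm2 0.01923. Median centring gave Ccna2 −0.01901, Cdc25b −0.02957, Aurka −0.05319 and Bub1 −0.002222. Quantile normalization gave Ccna2 −0.01945 and Aurka −0.02994. The slide row block gave Ccne1 0.2994, Mcm7 0.3044, Rrm2 0.3173, Cdk1 0.6767, Foxm1 0.7415, Plk1 0.1441, Ube2c 0.3325, Birc5 0.6196 and Mki67 0.5611. Spike-in centring gave Ccne1 0.3759, Mcm7 0.3092, Rrm1 0.2871, Rrm2 0.4075, Ccnb2 0.2301, Cdk1 0.2838, Foxm1 0.3325, Plk1 0.1021, Cdc20 0.1377, Ube2c 0.403, Birc5 0.279, Mki67 0.3433, Kif20a 0.3444 and Kif23 0.0176. Leaving out 1 array gave E2f1 −0.07887 to 0.4376, Ccna2 −0.2749 to 0.5807, Aurka −0.1446 to 0.1618, Bub1 −0.1355 to 0.3817, Kif11 −0.7051 to 0.9939, Rrm1 −0.3345 to 0.01448, Rrm2 −0.2637 to 0.3696, Ccnb2 −0.5186 to 0.148, Cdk1 −0.5767 to 0.6173, Cdc25b −0.123 to 0.1651, Ube2c −0.4536 to 0.5603, Mki67 −0.4339 to 0.4844, Ccnd1 −0.05876 to 0.5349, Ccnd3 −0.005736 to 0.3892, Ccne1 −0.2499 to 0.2587, Foxm1 −0.536 to 0.2325, Birc5 −0.5554 to 0.09642 and Kif20a −0.2372 to 0.0385. The causes were not tested. One alternative, outlier spots kept, was chosen after seeing the data and changed no sign.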
